A study of Mus musculus with 21 samples.

Results

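The 10 MHC class I and class II presentation genes described here were taken by gene symbol: *H2-K1*, *H2-D1*, *B2m*, *Tapbp* and *Nlrc5* of the class I pathway, and *H2-Aa*, *H2-Ab1*, *H2-Eb1*, *Cd74* and *Ciita* of the class II pathway. All 10 were among the 49652 genes listed in the count tables and among the 19315 that passed a filter on low counts. They were measured by bulk RNA sequencing in 21 mouse mammary tumors, 12 RhoC tumors from 8 mice and 9 control tumors from 9 mice. RhoC tumors arose in R26(RhoC/+);FloxNeoNeuNT;MMTV-CreNLST mice. Of the controls, 7 came from Gata4(loxP/+);FloxNeoNeuNT;MMTV-CreNLST mice and 2 from FloxNeoNeuNT;MMTV-CreNLST mice. All of these mice therefore carried FloxNeoNeuNT, in which an activated Neu cDNA sits at the endogenous *Erbb2* locus behind a loxP-flanked stop, and MMTV-CreNLST, a Cre transgene active in mammary epithelium. The R26 allele of the RhoC cohort holds a Cre-dependent wildtype RhoC cDNA linked to eGFP. Mice were virgin females and tumors were taken at humane endpoint. The labels give no ages, and because the cohorts reached endpoint at different ages, age and genotype cannot be told apart. Tumors R-13, R-14, R-15 and R-16 came from mouse P497, and R-6 and R-7 from mouse N9255. The label of R-18 names no mouse, so it was counted as a mouse of its own. The label of R-21 names a mouse that the study's tumor list gives to another tumor, which was not settled, and R-21 was also counted as a mouse of its own. By the study's methods and strain list, the FloxNeoNeuNT line is on FVB, the Gata4(loxP) line is FVB.CD1 and the R26(RhoC) chimeras, from R1 embryonic stem cells, were bred with FVB. The H-2 haplotype of each mouse, its set of MHC alleles, is not stated. Since reads were counted on 1 reference genome, differences in allele between mice and differences in expression cannot be told apart for the polymorphic genes *H2-K1*, *H2-D1*, *H2-Aa*, *H2-Ab1* and *H2-Eb1*.

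MHC class I molecules present peptides made inside the cell to CD8 T cells and are found on nearly all nucleated cells. A heavy chain (*H2-K1* or *H2-D1* in the mouse) pairs with beta-2-microglobulin, the product of *B2m*, and is loaded with peptide in the endoplasmic reticulum with the help of tapasin, the product of *Tapbp*. NLRC5 is a transcriptional coactivator of class I genes. MHC class II molecules present peptides from the endocytic pathway to CD4 T cells and are carried mainly by dendritic cells, macrophages and B cells, although interferon-gamma can also induce them on epithelial cells. *H2-Aa* and *H2-Ab1* encode the alpha and beta chains of I-A, *H2-Eb1* encodes the beta chain of I-E, and *Cd74* encodes the invariant chain that occupies the class II groove until peptide is loaded. CIITA is the master coactivator of class II genes. Both coactivators act through a promoter module made of W/S, X and Y boxes, to which RFX, CREB and NF-Y bind.

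Since the question here is how genes that share this module varied together, promoter windows were taken from RefSeq (GRCm38.p6) for the members whose windows were at hand, 6 of the 10. Each window runs from 250 bases before to 50 bases after the annotated start and is printed on the strand of the gene. Capitals mark matches on either strand to 5 sets of letters: CCAAT (the Y box, read as ATTGG on the opposite strand), ACNGATG (an X1 box core), GAAA followed after 2 bases by GAAA (ISRE-like), TTCNNNGAA (GAS-like) and GGGANTNCC (kappaB-like). No matches overlapped each other in these windows. The heavy chain genes and *B2m* stand for class I, and *H2-Aa* and *H2-Eb1* for class II.
H2-K1, chr17:34000298-34000597, minus strand: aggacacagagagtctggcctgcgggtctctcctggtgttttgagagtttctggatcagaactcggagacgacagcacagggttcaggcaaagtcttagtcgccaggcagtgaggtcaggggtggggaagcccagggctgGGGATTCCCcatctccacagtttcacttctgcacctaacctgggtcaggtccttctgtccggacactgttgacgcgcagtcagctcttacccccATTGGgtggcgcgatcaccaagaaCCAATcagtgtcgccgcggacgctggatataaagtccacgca
H2-D1, chr17:35262844-35263143, plus strand: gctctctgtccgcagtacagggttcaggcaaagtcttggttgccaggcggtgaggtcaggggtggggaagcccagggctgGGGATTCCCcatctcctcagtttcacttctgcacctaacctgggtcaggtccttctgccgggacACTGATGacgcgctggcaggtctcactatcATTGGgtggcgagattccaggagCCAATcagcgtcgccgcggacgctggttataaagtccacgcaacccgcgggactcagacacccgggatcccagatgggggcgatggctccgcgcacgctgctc
B2m, chr2:122147437-122147736, plus strand: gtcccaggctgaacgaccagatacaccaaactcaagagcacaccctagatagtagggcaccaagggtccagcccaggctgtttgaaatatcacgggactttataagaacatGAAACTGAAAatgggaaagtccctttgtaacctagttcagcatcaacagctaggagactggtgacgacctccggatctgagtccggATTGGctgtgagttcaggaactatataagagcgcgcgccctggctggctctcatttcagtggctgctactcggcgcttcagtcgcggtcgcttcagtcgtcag
H2-Aa, chr17:34287774-34288073, minus strand: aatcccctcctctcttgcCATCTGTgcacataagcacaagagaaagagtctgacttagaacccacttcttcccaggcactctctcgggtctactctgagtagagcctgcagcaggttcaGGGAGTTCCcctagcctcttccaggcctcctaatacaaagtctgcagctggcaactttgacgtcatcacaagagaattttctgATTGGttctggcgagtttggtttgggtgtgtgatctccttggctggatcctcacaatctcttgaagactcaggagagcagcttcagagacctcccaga
H2-Eb1, chr17:34305617-34305916, plus strand: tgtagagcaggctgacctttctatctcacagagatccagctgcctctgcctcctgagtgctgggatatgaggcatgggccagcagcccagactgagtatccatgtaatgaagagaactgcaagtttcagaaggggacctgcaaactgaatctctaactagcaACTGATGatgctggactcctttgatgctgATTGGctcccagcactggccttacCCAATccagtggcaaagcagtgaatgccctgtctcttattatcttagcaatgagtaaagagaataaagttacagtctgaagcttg

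All 7 member windows, a second *H2-K1* start and *Tapbp* included, held CCAAT, which 37.4% of the 32544 distinct promoter windows of this length hold. The *H2-K1* windows, from 34000298 and from 34000284, are almost the same sequence, so their matches are the same letters counted again. The X1 box core was found in 3 of the 7 (*H2-D1*, *H2-Eb1* and, farther upstream and on the opposite strand, *H2-Aa*), against 9.87% of all windows. In *H2-D1* the X1 core began 106 bases before the start and a Y box 76 bases before it. In *H2-Eb1* these positions were 88 and 59 bases before the start. The kappaB-like letters lay in the windows of *H2-D1*, *H2-Aa* and both starts of *H2-K1*, against 3.96% of all windows, and the ISRE-like letters only in that of *B2m*, 139 bases before the start, against 3.45%. No member window held the GAS-like letters, which 8.33% of all windows hold. A match is a run of letters and was not tested as a binding site.

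The control libraries held 47552423 to 100741339 counts and the RhoC libraries 47309780 to 85326903. The lowest count of any member in any tumor was 34 (*H2-Eb1* in N-9), while *B2m* had at least 16622 counts in every tumor. Values below are CPM (each count relative to the tumor's total) scaled by TMM, a normalization for library composition. The gene *Rhoc*, which also collects reads of the transgene cDNA, did not pass the test between cohorts (log2 fold change 0.19 ± 0.34 SE, adjusted p = 0.774, edgeR's quasi-likelihood test), and the tumor labelled R-2 had the lowest *Rhoc* level of all 21 at 22.8 CPM. The highest *Rhoc* level was in the control N-8 at 172 CPM, and the control N-6 at 145 CPM lay above every RhoC tumor but R-12. The *Rhoc* level thus did not bear out the labels of these tumors, which are named by their labels throughout. For many of the members and genes that R-2 leads, values without it are given. Epithelial markers (*Epcam*, *Krt8*, *Krt18*, *Krt19*, *Cdh1*) summed to at least 1088 CPM in every tumor. Leukocyte markers (*Ptprc*, *Laptm5*, *Cd52*, *Coro1a*, *Cd53*) summed to between 86.5 CPM in N-9 and 485 CPM in R-2. In such bulk tissue fewer cells of a type and less RNA per cell cannot be told apart.

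To compare genes with each other, the deposited FPKM values, which are per transcript length, were used. *B2m* was the most abundant member at a median of 1076 FPKM over the 21 tumors (range 327 to 3470), and it exceeded the next gene, *H2-D1*, in all 21 tumors. *H2-D1* had a median of 480 FPKM and *Cd74* of 381 FPKM, an order that held in only 13 of 21 tumors. *H2-K1* followed at 237 FPKM, *H2-Ab1* at 219 FPKM and *H2-Aa* at 209 FPKM. The I-A chains could not be ordered: *H2-Ab1* was above *H2-Aa* in 11 of 21 tumors. *Tapbp* had a median of 65.4 FPKM. The 3 genes of lowest level were the coactivators *Nlrc5* (2.87 FPKM) and *Ciita* (1.53 FPKM) and the I-E chain gene *H2-Eb1* (1.83 FPKM), and the order of *H2-Eb1* and *Ciita* held in 10 of 21 tumors. *Tapbp* exceeded *Nlrc5* in every tumor.

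The comparison of RhoC with control tumors asks whether presentation genes differed between the cohorts. Besides the R26(RhoC/+) allele, the cohorts differ in Gata4(loxP/+), which 7 of 9 controls and no RhoC tumor carry, so the comparison does not isolate RhoC. None of the 10 members passed at an adjusted p of 0.05 in edgeR's quasi-likelihood test, adjusted over 19315 genes, of which 43 (0.223%) passed, 0.0932% higher and 0.129% lower in RhoC tumors. At an unadjusted p under 0.05 only *Ciita* passed, 1 of 10, while 20.5% of all genes did. With DESeq2, 1 member passed, again *Ciita*, while 6.24% of all genes passed (3.66% higher in RhoC tumors), and on all genes with at least 1 count 5.71% passed. No member had groups that did not overlap, a property of 0.0155% of all those tested. As a median, the log2 fold change was 0.16 over the 5 class I members and 0.93 over the 5 class II members, beside -0.0052 over all tested genes. Without R-2 these medians were -0.07 and 0.69, and without the control tumor N-15, the control with the highest level of each class I member except *B2m*, they were 0.56 and 1.08.

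**Figure D1:**
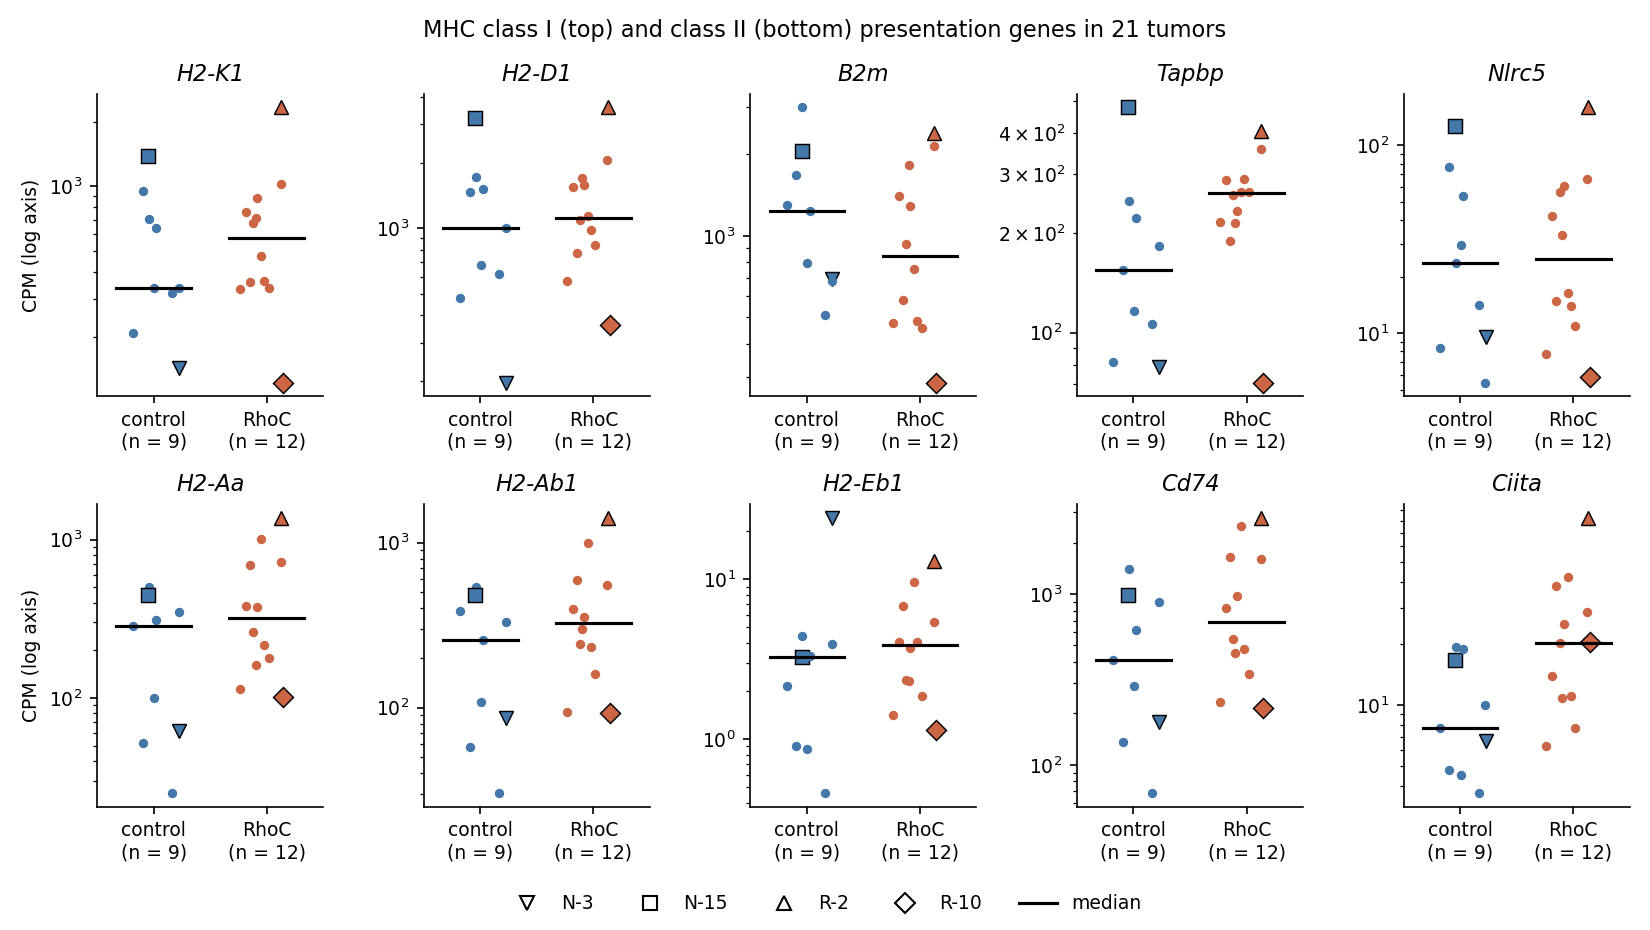
CPM on log axes of the 10 genes in each of 9 control tumors (blue) and 12 RhoC tumors (orange), with the class I pathway in the top row, the class II pathway in the bottom row and a line at each median. Symbols mark N-3, N-15, R-2 and R-10. The groups overlap for every gene, and R-2 is the highest RhoC tumor in all 10 panels.

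Of the class I pathway, *H2-K1*, a classical heavy chain, ranged in control tumors from 143 CPM in N-3 over a median of 338 CPM to 1382 CPM in N-15, and in RhoC tumors from 123 CPM in R-10 over a median of 575 CPM to 2333 CPM in R-2. The groups overlapped over almost their whole range. The mean was 558 ± 405 CPM (SD, n = 9) in control and 698 ± 579 CPM (SD, n = 12) in RhoC tumors, and the log2 fold change was 0.32 ± 0.45 SE (adjusted p = 0.703, edgeR) and -0.022 without R-2 and 0.62 without N-15. *H2-D1*, the other classical heavy chain, ranged from 197 CPM in N-3 over 1005 CPM to 3205 CPM in N-15 among controls and from 361 CPM in R-10 over 1116 CPM to 3591 CPM in R-2 among RhoC tumors. Its extremes fell in the same 4 tumors as those of *H2-K1*. The cohorts differed by 0.16 ± 0.42 SE on the log2 scale, less than the error (adjusted p = 0.850, edgeR), by -0.071 without R-2 and by 0.50 without N-15.

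*B2m*, the light chain shared by all class I molecules, was the only class I member with a negative log2 fold change, -0.29 ± 0.39 SE (adjusted p = 0.698, edgeR), which was -0.46 without R-2 and -0.042 without N-8. It ranged from 508 CPM in N-9 over 1233 CPM to 2984 CPM in N-8 among controls and from 287 CPM in R-10 over 843 CPM to 2398 CPM in R-2 among RhoC tumors. Its highest value was thus in a control tumor, and no RhoC tumor exceeded it. *Tapbp*, the peptide-loading chaperone, was the least variable member: its SD over the 21 tumors was 0.77 on the log2 scale, beside a median of 0.70 over all tested genes. Control tumors ranged from 78.8 CPM in N-3 over 155 CPM to 478 CPM in N-15, and RhoC tumors from 70.7 CPM in R-10 over 263 CPM to 404 CPM in R-2. In 11 of 12 RhoC tumors *Tapbp* lay above the control median, R-10 being the exception, yet the fold change did not pass (log2 fold change 0.46 ± 0.30 SE, adjusted p = 0.397, edgeR), and it was 0.78 without N-15. *Zbtb22* lies on the same strand and overlaps 3422 bases of the *Tapbp* locus.

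*Nlrc5*, the class I coactivator, varied most within class I, with a SD of 1.46 on the log2 scale. It ranged from 5.45 CPM in N-6 over 23.6 CPM to 127 CPM in N-15 among controls and from 5.80 CPM in R-10 over 24.9 CPM to 160 CPM in R-2 among RhoC tumors. The medians differed by little and the log2 fold change was 0.07 ± 0.61 SE (adjusted p = 0.956, edgeR). Single tumors moved it: the log2 fold change was -0.37 without R-2 and 0.56 without N-15.

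Of the class II pathway, *H2-Aa* ranged from 25.1 CPM in N-9 over 285 CPM to 500.5 CPM in N-8 among controls and from 101.3 CPM in R-10 over 320 CPM to 1381 CPM in R-2 among RhoC tumors. The RhoC tumors R-2, R-15, R-16 and R-21 exceeded every control, R-15 and R-16 being of the same mouse (P497), while 6 of 12 lay above the control median. The log2 fold change was 0.98 ± 0.56 SE (adjusted p = 0.319, edgeR) and 0.70 without R-2. *H2-Ab1*, its partner chain, ranged from 30.5 CPM in N-9 over 258 CPM to 539 CPM in N-8 and from 92.6 CPM in R-10 over 327 CPM to 1419 CPM in R-2, and its log2 fold change came to 0.83 ± 0.54 SE (edgeR adjusted p = 0.382) and to 0.52 without R-2. The same 4 RhoC tumors lay above all controls. *Cd74*, the invariant chain, ranged from 68.6 CPM in N-9 over 410 CPM to 1394 CPM in N-8 and from 215 CPM in R-10 over 688 CPM to 2804 CPM in R-2. The cohorts differed by 0.93 ± 0.55 SE on the log2 scale (adjusted p = 0.341, edgeR) and by 0.69 without R-2. At the low end, the controls N-9, N-7 and N-3 had the 3 lowest values of *H2-Aa*, *H2-Ab1* and *Cd74* of all 21 tumors.

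*Ciita*, the class II coactivator, had the largest fold change of the 10. Control tumors ranged from 3.71 CPM in N-9 over 7.69 CPM to 19.4 CPM in N-8, and RhoC tumors from 6.30 CPM in R-1 over 20.2 CPM to 83.0 CPM in R-2. In 11 of 12 RhoC tumors *Ciita* lay above the control median and in 7 above every control, and no control reached the RhoC median. The mean was 10.2 ± 6.34 CPM (SD, n = 9) in control and 25.6 ± 21.5 CPM (SD, n = 12) in RhoC tumors. The log2 fold change of 1.32 ± 0.45 SE had an unadjusted p of 0.00741 and an adjusted p of 0.126 in edgeR's quasi-likelihood test, and DESeq2 gave an adjusted p of 0.0407 for a log2 fold change of 1.31. DESeq2 took tumors of 1 mouse as separate. *Ciita* did not pass with counts summed over each mouse or with limma voom and mouse as a random effect. Over all alternatives other than leaving out 1 tumor the adjusted p ran from 0.0407 to 0.727. That range includes the replicate block of the closing section, whose cohort difference rests on few tumors and was 0.95 for *Ciita*. Over the left-out tumors the adjusted p in edgeR ran from 0.0897 to 0.189, with log2 fold changes of 0.99 (without R-2) to 1.49. *Dexi* lies on the opposite strand and overlaps 25888 bases of the *Ciita* locus. It moved the same way between cohorts (log2 fold change 0.64 ± 0.16 SE, adjusted p = 0.0688, edgeR), from a median of 7.84 CPM in control to 10.8 CPM in RhoC tumors. As the strand setting of the counting is not stated, the part of *Dexi* reads in the *Ciita* difference was not tested.

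**Figure D2:**
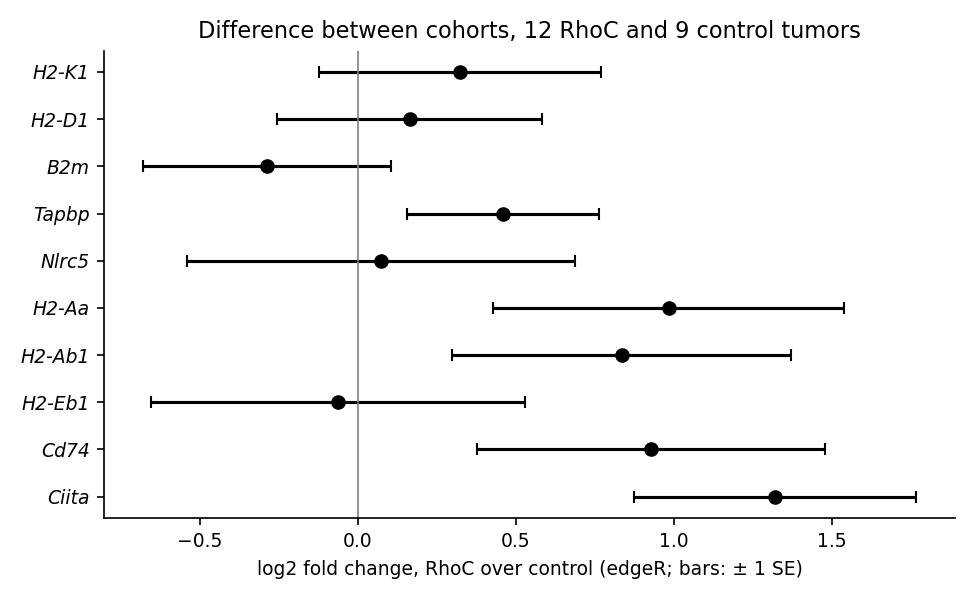
Log2 fold change of RhoC over control tumors for each gene, with bars of 1 SE from the edgeR fit on all genes (12 and 9 tumors). The bars of *H2-K1*, *H2-D1*, *B2m*, *Nlrc5* and *H2-Eb1* cross 0, and *Ciita* has the largest value at 1.32.

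*H2-Eb1*, the I-E beta chain, ranged in control tumors from 0.46 CPM in N-9 over 3.28 CPM to 24.4 CPM in N-3 and in RhoC tumors from 1.14 CPM in R-10 over 3.89 CPM to 13.1 CPM in R-2. It was highest of all 21 in N-3, a poorly differentiated adenocarcinoma of a Gata4(loxP/+) control in which *H2-Aa*, *H2-Ab1* and *Cd74* each ranked 19 of 21. Within tumors, *H2-Eb1* counts amounted to between 0.739% (N-15) and 1.88% (R-13) of *H2-Aa* counts in 20 tumors, with a median of 1.01%, and to 39.6% in N-3. The share in N-3 was 21.1 times the next highest. The log2 fold change between cohorts was -0.06 ± 0.59 SE with all tumors and 0.94 without N-3 (adjusted p = 0.961 and 0.315, edgeR). Its sign also turned under other settings given in the closing section. *H2-Ea*, the I-E alpha chain gene, stood at 0.65 CPM in N-3, inside the control range of 0.42 to 3.79 CPM.

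Within class I no control tumor stood apart in the same way, and N-3 lay at the edge of the range. *H2-D1* counts amounted to 28.3% of *B2m* counts in N-3 and to 37.0% in the complex adenocarcinoma N-4, the 2 lowest of 21 tumors, beside a median of 121% and a highest value of 203% in R-13. *H2-K1* counts were 15.9% of *B2m* in N-4 and 20.6% in N-3, again the lowest pair, and reached 97.3% in R-2. N-3 also had the highest *H2-K1* counts relative to *H2-D1*, 72.9% beside a median of 46.5%. That ratio of the heavy chains had a 2.17-fold range over the 21 tumors. The I-A chains kept about as close to each other, with a 2.44-fold range. *H2-Ab1* counts lay between 76.5% and 141% of *H2-Aa* in 20 tumors and at 186% in R-12, and *Cd74* counts between 144% and 289%. These within-tumor ratios were chosen after the values were seen, and for the H-2 genes allele and level cannot be told apart in them.

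**Figure D3:**
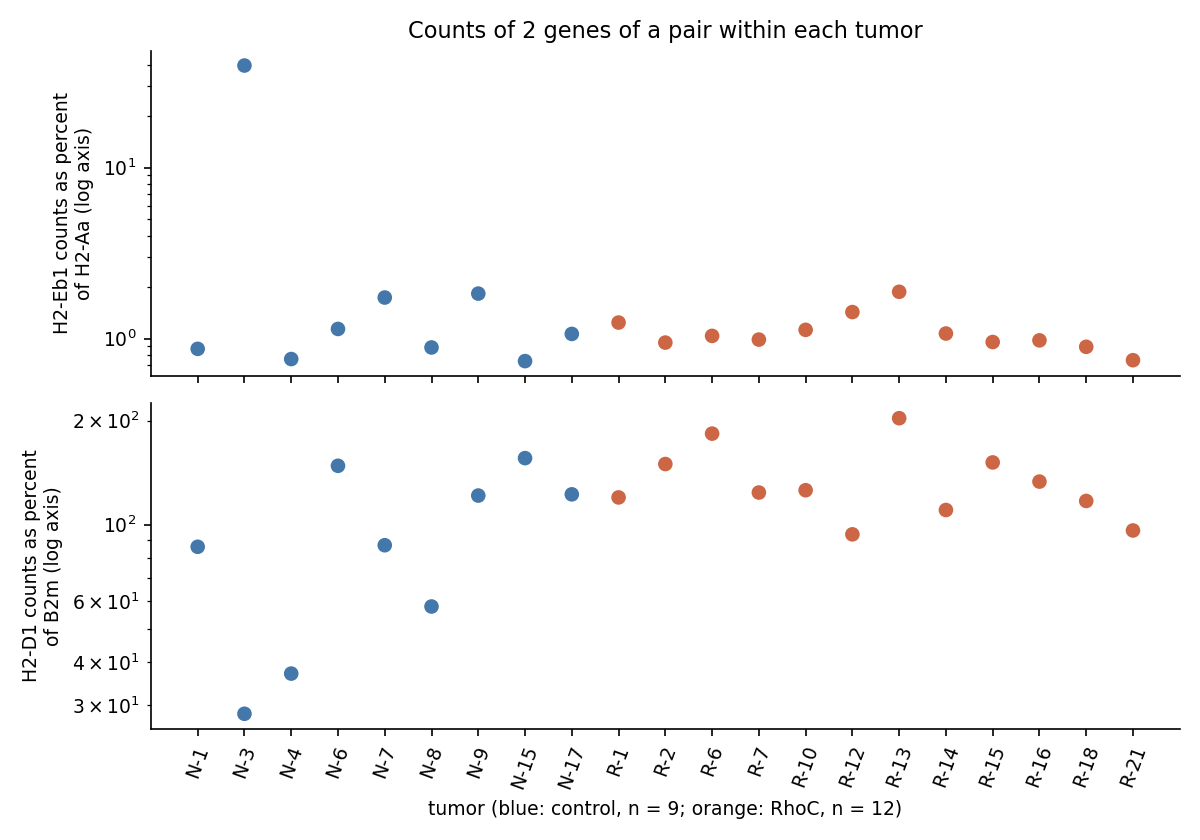
Counts of *H2-Eb1* as a percent of *H2-Aa* (top) and of *H2-D1* as a percent of *B2m* (bottom) in each tumor, on log axes (blue, 9 control tumors; orange, 12 RhoC tumors). N-3 stands apart at 39.6% in the top panel and is lowest at 28.3% in the bottom panel.

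The next question was how the members varied together across the 21 tumors. Correlations of log2 CPM were computed for 61 relations (45 pairs of members, each member with the pan-leukocyte gene *Ptprc*, and the coactivators with genes of the interferon-gamma axis such as *Irf1* and *Ifng*), with a two-sided permutation test of 100000 resamples and adjustment over the 61, and 42 passed at an adjusted p of 0.05. As tumors of 1 mouse are not independent, r over the means of 17 mice is given as well; over these means all 42 passed, and 45 in all. All 10 pairs within class I passed, with r from 0.49 (*B2m* with *Tapbp*) to 0.95 (*H2-K1* with *H2-D1*) and from 0.61 to 0.96 over mice, and all 10 within class II passed, with r from 0.63 to 0.99 (*H2-Aa* with *Cd74*) and from 0.58 to 0.99 over mice. Between the classes r ran from 0.13 to 0.68, and from 0.14 to 0.75 over mice, and 14 of 25 pairs passed. Without the 2 tumors farthest from the median 9 pairs within class I, 8 within class II and 5 of these 25 passed, the 5 all with *Tapbp*, and within control tumors r ran from -0.27 to 0.73. *B2m* with *Tapbp* did not pass by rho (0.41, adjusted p = 0.0949, permutation test) or without R-10 and N-8 (adjusted p = 0.168).

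Each coactivator correlated with the genes of its own class, and *Ciita* also passed with *H2-K1* (r = 0.48), *H2-D1* (0.52) and *Tapbp* (0.54). For *Nlrc5* and *H2-K1* r was 0.91 (Spearman's rho 0.89, adjusted p = 6.1e-05, permutation test) over tumors and 0.90 over mice, and r was 0.86 within control and 0.95 within RhoC tumors. Without R-2 and R-10, the tumors farthest from the median of *H2-K1*, it was 0.88. For *Ciita* and *H2-Aa* r was 0.87 (rho 0.83, adjusted p = 6.1e-05, permutation test), 0.85 over mice, 0.88 within control and 0.85 within RhoC tumors, and 0.83 without N-9 and N-7. The p behind both is the smallest that these permutations can give, 1e-05. *Nlrc5* with *Ciita* gave r = 0.40 (rho 0.37, adjusted p = 0.0976, permutation test), with 0.47 over mice, 0.27 within control and 0.55 within RhoC tumors. *H2-K1* with *H2-Aa* gave r = 0.52 (rho 0.58, adjusted p = 0.0241, permutation test), with 0.58 over mice (adjusted p = 0.0221) and 0.67 within RhoC tumors. Within control tumors r was 0.35 (adjusted p = 0.468), and without R-2 and R-10, which narrows the range of *H2-K1*, it was 0.38 and did not pass (adjusted p = 0.162). *H2-Eb1* correlated with the other class II genes at 0.63 to 0.67 (0.58 to 0.62 over mice), and its r with *H2-Aa* was 0.38 within control tumors, where N-3 lies, and 0.96 within RhoC tumors.

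**Figure D4:**
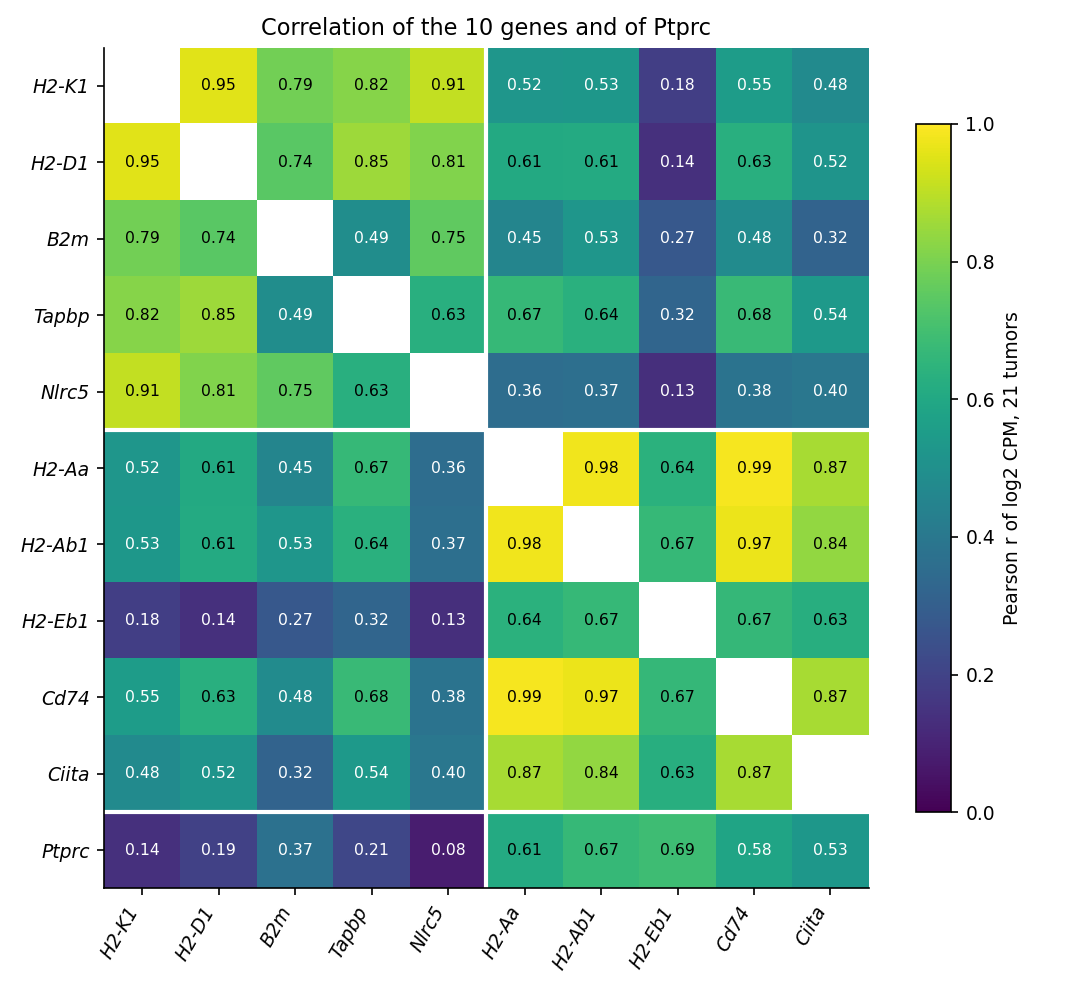
Pearson r of log2 CPM over 21 tumors for each pair of the 10 genes and, in the bottom row, with *Ptprc*. White lines separate class I, class II and *Ptprc*. Values within each class reach 0.95 (class I) and 0.99 (class II), and *Ptprc* lies between 0.08 and 0.37 with class I and between 0.53 and 0.69 with class II.

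With *Ptprc*, the phosphatase CD45 on all leukocytes, the class II members had r between 0.53 (*Ciita*) and 0.69 (*H2-Eb1*), and all 5 passed by Pearson's r, over mice too (0.56 to 0.73). For *Ciita*, rho was 0.42 and did not pass (adjusted p = 0.0848, permutation test). The class I members had r between 0.08 (*Nlrc5*) and 0.37 (*B2m*), and none passed, with 0.16 to 0.51 over mice. Without N-9 and R-2, the tumors with the lowest and highest *Ptprc*, r with *Ptprc* ran from -0.14 to 0.56 and of the class II members only *H2-Eb1* still passed (adjusted p = 0.0299, permutation test; 0.0627 to 0.231 for the other 4). The difference between the classes in r was not tested. With *Irf1*, an interferon-induced transcription factor, *Nlrc5* had r = 0.67 (rho 0.65, adjusted p = 0.00233, permutation test), with 0.77 over mice and 0.63 without N-15 and N-9. *Ciita* had r = 0.45 with *Irf1* (rho 0.47) and did not pass over tumors (adjusted p = 0.0542, permutation test), while over mice r was 0.59 and passed (adjusted p = 0.0221, permutation test). This r was 0.65 within control tumors but 0.10 within RhoC tumors. Without N-15 and N-9 it was 0.42 and did not pass (adjusted p = 0.127, permutation test). *Ifng* itself had 44 counts over all 21 tumors and was at 0 in 8 of them, so its relations are not readable at this depth. The 42 relations that passed include 1 of these, with *Ciita* (r = 0.46, adjusted p = 0.0496; rho 0.37, adjusted p = 0.121, permutation test).

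The classes parted in single tumors. R-2, listed as a poorly differentiated adenocarcinoma with adenomyoepithelioma, ranked first or second of 21 for all 10 genes. In N-7, a solid nodular carcinoma of a control mouse, *H2-K1* at 951 CPM ranked 4, *Nlrc5* at 76.8 CPM ranked 3, *B2m* ranked 6, *H2-D1* ranked 9 and *Tapbp* ranked 16, while *H2-Aa* at 51.7 CPM ranked 20. R-15 and R-16 were high in class II only, with *H2-Aa* at 1014 and 697 CPM (ranks 2 and 4) and *H2-K1* at 473 and 359 CPM (ranks 11 and 13). *H2-Aa* counts were 5.44% of *H2-K1* counts in N-7 and 214% in R-15. R-10, a complex adenocarcinoma, was lowest of 21 for *H2-K1*, *B2m* and *Tapbp*, yet its *Ciita* level of 20.3 CPM ranked 6 while its *H2-Aa*, *H2-Ab1*, *H2-Eb1* and *Cd74* ranked 17 or 18. In no other tumor did the ranks of *Ciita* and *H2-Aa* lie this far apart.

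**Figure D5:**
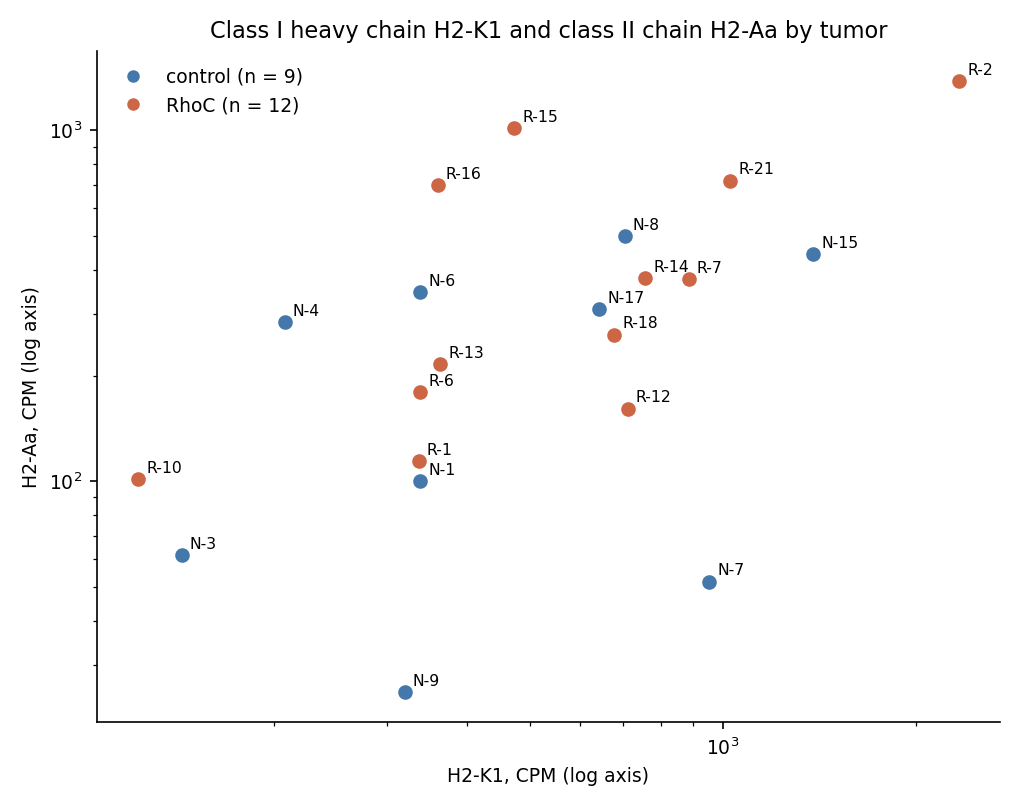
*H2-K1* against *H2-Aa* in CPM on log axes, 1 point for each tumor (blue, 9 control; orange, 12 RhoC). R-2 is highest in both at 2333 and 1381 CPM, N-7 lies low in *H2-Aa* at 51.7 CPM with *H2-K1* at 951 CPM, and R-15 and R-16 lie high in *H2-Aa* with *H2-K1* near the middle.

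Histology, which comes from the study's tumor list and is given for 18 of the 21 tumors, is described per tumor and formed no tested group. The 3 squamous cell carcinomas, all RhoC tumors (R-6, R-13 and R-14), had *H2-Aa* at 180, 216 and 380 CPM and *Tapbp* between 265 and 292 CPM. Of the solid nodular carcinomas N-9 and N-7 were the 2 lowest tumors for *H2-Aa* and R-1 ranked 16, while R-15, listed as either solid nodular or poorly differentiated, ranked 2. The complex adenocarcinomas spread from R-10 (*H2-K1* at 123 CPM) to R-7 (885 CPM). The poorly differentiated adenocarcinomas of control mice held both the lowest and the highest *H2-K1* of the controls, N-3 and N-15. Tumors of 1 mouse also differed. In mouse P497 *H2-Aa* ran from 216 CPM in R-13 to 1014 CPM in R-15, a 4.70-fold range beside 13.6-fold over all RhoC tumors, while *H2-K1* had a 2.11-fold range beside 19.04-fold. In mouse N9255 *Nlrc5* was 10.9 CPM in R-6 and 60.6 CPM in R-7, a 5.55-fold range.

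Marker lists of immune cells were read beside these levels. Dendritic cell markers (*Itgax*, *Flt3*, *Xcr1*, *Clec9a*, *Zbtb46*, *Ccr7*) summed to between 15.5 CPM in N-9 and 194 CPM in R-2, with control tumors at 15.5 to 81.5 CPM and RhoC tumors at 26.2 to 194 CPM. N-9 was also lowest of 21 for all class II members and R-2 highest for all but *H2-Eb1*. N-9 was lowest of 21 as well in the summed macrophage, T cell, NK cell, fibroblast (218 CPM) and endothelial (85.6 CPM) markers. *Xcr1* and *Flt3*, both at 2.08 CPM or less in every control, stood at 42.6 and 24.6 CPM in R-2. Macrophage markers (*Adgre1*, *Csf1r*, *Cd68*, *C1qa*, *C1qb*, *C1qc*, *Fcgr1*, *Mrc1*) summed to between 150 and 949 CPM in control and 295 and 1111 CPM in RhoC tumors, highest in R-15. T cell markers reached 35.0 CPM in R-2, NK cell markers reached 17.2 CPM in R-15, and B cell markers did not exceed 3.82 CPM in any tumor, with 4 of 5 under the count filter. None of the tested leukocyte, B cell, T cell, NK cell, dendritic cell or macrophage markers passed between cohorts by edgeR at an adjusted p of 0.05. The part of immune cell content in the class II levels was not tested.

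Among 60 further genes of presentation and its control, 56 passed the count filter and none passed between cohorts at an adjusted p of 0.05 by edgeR. At an unadjusted p under 0.05, 9 were higher and 2 lower in RhoC tumors, beside 10.5% and 9.93% of all genes, and the median log2 fold change was 0.12. DESeq2 called 3 of the 56, *H2-M2*, *Psmb5* and *Socs1*, beside 6.24% of all genes. *H2-M2*, a class I-like gene, had the smallest adjusted p by edgeR (0.0928, log2 fold change 4.64 ± 1.37 SE), with control tumors at 0.014 to 3.23 CPM, a RhoC median of 2.65 CPM and 110 CPM in R-2, and without R-2 the log2 fold change was 2.63 (adjusted p = 0.159, edgeR). Of the other class I-like genes *H2-T24* came next (log2 fold change -0.83 ± 0.39 SE, adjusted p = 0.235, edgeR). *Tapbpl*, a second peptide editor related to tapasin, differed by 1.05 ± 0.43 SE on the log2 scale (adjusted p = 0.181, edgeR) and by 0.72 without R-2, where it stood at 93.2 CPM.

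Of the 9 proteasome genes of the list none passed by edgeR with all tumors. *Psmb5*, a constitutive catalytic subunit, had 0.87 ± 0.27 SE (adjusted p = 0.102, edgeR; 0.0318 by DESeq2), and *Psmb6* had 0.37 ± 0.16 SE (adjusted p = 0.215, edgeR). Of the class II loading genes *H2-Oa*, a modulator of peptide exchange, had 2.16 ± 0.77 SE (adjusted p = 0.139, edgeR), with R-2 at 10.6 CPM and no control above 0.61 CPM, while it had 0.64 without R-2 and 0.62 by DESeq2 (adjusted p = 0.322). *H2-DMb2*, a chain of the exchange factor H2-DM, had 0.94 ± 0.43 SE (adjusted p = 0.227, edgeR) and 0.73 without R-2. *H2-Ea* had 1.13 ± 0.48 SE (adjusted p = 0.197, edgeR) and 0.84 without R-2. Of the regulators beside *Ciita*, *Rfxank*, a subunit of the RFX complex, had 0.32 ± 0.22 SE (adjusted p = 0.404, edgeR). Of the interferon-gamma axis, *Irf2* had -0.44 ± 0.17 SE (adjusted p = 0.155, edgeR). *Ifngr2* had 0.26 ± 0.21 SE (adjusted p = 0.491, edgeR) and 0.12 without R-2. *Socs1*, a feedback inhibitor of that axis, had -0.11 ± 0.80 SE by edgeR and 2.08 by DESeq2 (adjusted p = 0.951 and 0.00234). It stood at 23.6 CPM in N-15, while the control median was 0.49 CPM. Without N-15 its log2 fold change by edgeR was 2.27 (adjusted p = 0.0436), and without R-2 it was -0.35.

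The genes whose levels ran most like those of 4 members, by Pearson r of log2 CPM over the 21 tumors, were taken from all tested genes outside the 10. For *H2-K1* these were *H2-K2* (0.97), *Tap1* (0.96), *H2-Q1* (0.96), *Psmb9* (0.96) and *Psmb8* (0.95). *Tap1* encodes a subunit of the peptide transporter, *Psmb8* and *Psmb9* encode immunoproteasome subunits, and *H2-K2* and *H2-Q1* are class I sequences whose counts are uncertain where a read matches more than 1 of these related genes. For *Nlrc5* they were the class I-like genes *H2-Q10* (0.97), *H2-Q7* (0.96) and *H2-Q6* (0.95), whose counts carry the same uncertainty. Next came *9330175E14Rik* (0.90), which overlaps *Nlrc5* on the opposite strand, and *Psmb9* (0.90). For *H2-Aa* they were *H2-Ea* (0.94), *Man2b1* (0.92), a lysosomal mannosidase, *H2-Ob* (0.92), *Slamf9* (0.92) and *Slamf8* (0.92), leukocyte surface receptors. For *Ciita* they were *Rasal3* (0.90), *H2-DMa* (0.88), *Plcb2* (0.88), *Abi3* (0.85) and *Dcaf12l2* (0.85). These values share library and cell composition over the same tumors and are descriptions.

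On GRCm38 the members lie on 5 chromosomes. The MHC itself is on chromosome 17, with *Tapbp* at 33915899 to 33929292, *H2-K1* at 33996017 to 34000347, *H2-Ab1* at 34257689 to 34269419, *H2-Aa* at 34282744 to 34287823, *H2-Eb1* at 34305867 to 34316674 and *H2-D1* at 35262730 to 35267499. *B2m* lies on chromosome 2 from 122147686 to 122153083, *Nlrc5* on chromosome 8 from 94434356 to 94527272, *Ciita* on chromosome 16 from 10480059 to 10528418 and *Cd74* on chromosome 18 from 60803848 to 60812652. Genes of high correlation were not neighbors in every case: *Nlrc5* and *H2-K1*, and *Cd74* and *H2-Aa*, sit on different chromosomes.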

How the data were processed

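RNA of 21 tumors was sequenced on an Illumina NovaSeq instrument after a stranded total RNA kit with rRNA depletion. Per the labels and the submitters' processing notes, the authors used FastQC 0.11.5, Trim Galore 0.5.0, STAR 2.6.0c and HTSeq 0.6.1p2 on GRCm38. The annotation release and the strand setting of the counting are not given in the sources used here. The deposited counts are raw reads per gene for each tumor, and the authors also deposited FPKM values, used here only to order genes by level. Their fold changes and p-values were not used.

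Counts were filtered with filterByExpr by cohort, scaled by TMM and fitted with edgeR 4.0.16 (R 4.3.3) without covariates, and p-values were adjusted by Benjamini-Hochberg over all 19315 tested genes. The SE is the log2 fold change divided by the root of its F statistic. DESeq2 1.42.0 and limma 3.58.1 gave alternatives. Log2 CPM used a prior count of 2. Scripts were tested on simulated data. Cohorts follow the labels, so p-values treat tumors of 1 mouse as separate. The members, lists, motifs and rules for naming genes (the 2 smallest p of each list, the 5 highest r for 4 members) were chosen with earlier results of these data known, so lists give no independent support. Precision rests on counting depth (47309780 to 100741339 counts) and on the number of tumors. The relations of 1 further gene are not reported here.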

Additional observations from a re-analysis of the deposited data

Results flagged for a closer look

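The control tumor N-3 stood apart in the ratio of *H2-Eb1* to *H2-Aa*. Its log2 ratio of counts was -1.34, while the other 8 control tumors lay between -7.08 and -5.77, and its gap to the nearest of them took up 0.772 of the whole range, above Dixon's limit of 0.493 for 9 samples. Of 18 member levels and ratios examined this way in the control tumors, 1 passed. Chance passes about 1 in 20 groups, but this ratio was picked after its values were seen, so the comparison is a description of N-3 and not a test.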

How the results depend on the processing

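No member passed the edgeR test under any alternative, and the class II median of log2 fold changes stayed positive throughout. It ran from 0.69 to 1.20 with 1 tumor left out and from 0.70 (without mouse P497) to 1.14 (without the squamous cell carcinomas) otherwise. The class I median ran from -0.07 (without R-2) to 0.56 (without N-15) with 1 tumor left out and from -0.46 (replicate block, described below) to 0.71 (only the Gata4(loxP/+) controls) otherwise. The number of genes called, 43, was 1206 with DESeq2 and 1439 with DESeq2 on all genes with a count (chosen after seeing the data), 27 with library size in place of TMM, 3 with counts summed over each mouse, 3 with limma voom and mouse as a random effect, 438 with only the Gata4(loxP/+) controls, 3 without mouse P497, 26 without the squamous cell carcinomas and 19 without the spindle cell tumor. With 1 tumor left out it ran from 14 (without N-9) to 346 (without N-15). Either DESeq2 fit called 1 member (*Ciita*) and 3 other presentation genes (*H2-M2*, *Psmb5*, *Socs1*). The Gata4(loxP/+) controls alone gave 3 (*Psmb5*, *Psmb10*, *Socs1*), and leaving out 1 tumor 0 to 3, the latter without N-15 (*Psmb5*, *Psmb6*, *Socs1*). The log2 fold change of *H2-Eb1* was 0.42 with voom and 0.067 without the squamous cell carcinomas. With 1 tumor left out, that of *H2-Eb1* ran from -0.32 (without R-2) to 0.94 (without N-3), *B2m* from -0.46 (R-2) to -0.042 (N-8) and *Tapbp* from 0.35 (N-4) to 0.78 (N-15), and without R-2 or N-15 it ran from -0.37 to 0.56 for *Nlrc5*, -0.022 to 0.62 for *H2-K1* and -0.071 to 0.50 for *H2-D1*. Over all tumors 42 correlations passed. Within control tumors, where n is 9, 11 passed, all among the 42, within RhoC tumors, where n is 12, 45 passed, 38 of them among the 42, and without the 2 farthest tumors 25 passed, 24 of them among the 42. The cause of these shifts was not tested.

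The tumor numbers 1, 6, 7 and 15 occur in both cohorts but mark no shared mouse, and deviations of same-numbered tumors correlated between -0.24 and 0.02, so they do not pair the tumors. The replicate block fits a term for each tumor number, so only the tumors numbered 1, 6, 7 and 15 inform its cohort difference. All other tumors drop out of that difference, and the values therefore do not describe the cohorts as a whole. With this block 0 genes passed in edgeR (0 members). The log2 fold change was -0.40 for *H2-K1*, -0.46 for *H2-D1*, -1.08 for *Nlrc5* and 0.85 for *H2-Eb1*. Depth limits the reading of *Ifng* and of the B cell markers.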
